A study of Mus musculus with 9 samples.

Results

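The 110 genes described here encode growth factors, Wnt, Notch and ephrin proteins, with their receptors and the proteins that bind them, and were followed in kidney tumour areas and normal kidney cortex of mice. They were taken from the 14052 genes of the count table by symbol: every gene whose name starts with Fgf, Pdgf, Vegf, Igf, Tgfb, Bmp, Wnt, Fzd, Notch, Eph, Efn, Erbb or Angpt, without Igfbp3 and the Ephx epoxide hydrolases. Egfr, Met, Kdr, Flt1, Flt4, Tgfa and Hgf were also sought by name. Tgfa, Erbb3, Bmpr2, Fgf1 and Wnt5a are not among the 110 genes, so the counts by family do not cover whole families. Of the 110 genes, 96 had a count in at least 1 area and 14 had none. The edgeR test, which needs a minimum of counts, was fitted to 7020 genes, 73 of the 110 among them. A further 23 were counted but too few times to be tested.

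RNA sequencing was run on 5 tumour areas (L4, R2, R3, R4 and R5) of the renal cortex of mice that carry floxed Vhl and Pbrm1 alleles (Vhl F/F Pbrm1 F/F) and Ksp-Cre, on a background mixed from C57BL/6, BALB/c and 129. It was also run on 4 areas (L1, L2, R1 and R2) of normal renal cortex of wild-type C57BL/6 mice. All mice ate a normal diet and were about 1 year old, and the labels name no treatment. The Ksp promoter, that of Cdh16, drives Cre in tubule epithelium, so stroma, vessels and blood cells of the tumour areas keep both genes. Every tumour label carries a shared number and every normal label another one, so that each group may come from a single mouse. The p-values then measure the spread between areas, and genotype, tumour, strain and animal cannot be told apart.

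Growth factors of these families are mostly secreted and act on receptors of neighbouring cells. The VEGF, FGF, PDGF, IGF, EGF and HGF receptors are tyrosine kinases, the TGF beta and BMP receptors are serine and threonine kinases that phosphorylate Smad proteins, and frizzled receptors take up Wnt signals. Notch receptors and Eph receptors are switched on by ligands on the surface of the adjacent cell. In the kidney, podocytes and tubules make VEGF for the capillaries, stromal cells make PDGF receptors and TGF beta drives fibrosis. The Vhl protein marks hypoxia-inducible factors for destruction, and genes of this set such as Vegfa, Pdgfb and Igfbp1 are known targets of those factors.

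The promoters of 3 genes are shown because Igfbp1 had the largest change of all 73 tested genes, and because Flt1 and Kdr, the main VEGF receptors of blood vessels, changed together. Each line gives the 250 bases before the RefSeq start of the gene (GRCm38.p6), read along the gene's strand. The ranges are chr11:7197537-7197786 (plus strand) for Igfbp1, chr5:147726012-147726261 (minus strand) for Flt1 and chr5:75978456-75978705 (minus strand) for Kdr. Capitals mark the core letters of a hypoxia response element, ACGTG or GCGTG on either strand.

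Igfbp1: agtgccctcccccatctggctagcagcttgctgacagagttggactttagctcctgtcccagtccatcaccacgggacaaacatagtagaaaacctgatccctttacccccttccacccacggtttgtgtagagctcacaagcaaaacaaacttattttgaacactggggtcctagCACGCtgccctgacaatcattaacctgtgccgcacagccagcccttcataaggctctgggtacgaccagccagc
Flt1: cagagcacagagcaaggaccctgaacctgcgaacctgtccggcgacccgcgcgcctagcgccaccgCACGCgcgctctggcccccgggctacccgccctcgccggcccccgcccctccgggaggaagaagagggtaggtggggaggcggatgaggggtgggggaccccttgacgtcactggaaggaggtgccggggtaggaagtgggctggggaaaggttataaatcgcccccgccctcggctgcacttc
Kdr: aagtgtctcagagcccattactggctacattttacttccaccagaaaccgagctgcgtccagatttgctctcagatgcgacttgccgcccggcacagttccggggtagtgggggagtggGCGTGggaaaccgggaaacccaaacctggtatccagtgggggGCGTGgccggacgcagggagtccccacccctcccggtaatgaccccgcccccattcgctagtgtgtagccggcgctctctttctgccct

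The core begins 74 bases before the start in Igfbp1, 184 in Flt1, and 131 and 89 in Kdr. A core occurs in 12679 of 32851 promoters of this length (38.6%). Among matched genes of the set, 14 of 23 that were higher in tumour had a core in any of their promoters. Of those that were lower, 11 of 19 did. The first share counts single promoters and the other counts are of genes, so they cannot be set against each other. Both letter patterns can overlap, since CACGTG holds ACGTG on both strands, and such an overlap was counted once per promoter. The Igfbp1 promoter also holds CAAAACA, searched as the core of an insulin response element on both strands and found in 5.56% of all promoters. Promoters were matched for 88 of the 110 genes. These matches describe letters, and nothing measured here shows that a factor was bound.

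Levels are given as CPM, reads of a gene relative to all counted reads of its library, with TMM scaling between libraries, always for tumour areas L4, R2, R3, R4 and R5 and normal areas L1, L2, R1 and R2 in that order. CPM is not divided by transcript length, so levels are compared between areas and not between genes. Log2 fold changes are tumour over normal from edgeR's quasi-likelihood test, with a standard error derived from its F statistic. Increases and decreases written as "-fold" are ratios of the mean CPM of the groups, and the 2-fold limit is 1 on the log2 scale. "Higher", "lower", "rose" and "fell" stand for a Benjamini-Hochberg adjusted p under 0.05 over all 7020 genes. The value after ± beside a mean is the SD over the 5 tumour or the 4 normal areas. Counted reads ran from 5143527 to 8250261 per area, and the 3 counts that a 0 allows come to 0.409 to 0.649 CPM, for counting error only.

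In the tumour areas more ligands rose than fell, and more receptors fell than rose. Of 73 tested genes 29 rose (39.7%, against 39.3% of all genes tested) and 26 fell (35.6%, against 35.3%), and 18 did not pass. With a change of at least 2-fold, 19 rose (26%, against 17.3%) and 8 fell (11%, against 12.6%). In 52 genes (71.2%, against 67.8%) every tumour area lay on 1 side of all normal areas. The median log2 fold change was 0.15, against 0.059 over all tested genes, so that the whole set stood near the background. Sorted by what their products do, 15 of 28 tested ligands rose (53.6%) and 6 fell (21.4%), with a median of 0.65. At least 2-fold, 12 ligands rose (42.9%). Of 29 tested receptors 6 rose (20.7%) and 16 fell (55.2%), with a median of -0.38. Past 2-fold, 1 receptor rose (3.45%) and 3 fell (10.3%), the latter below the 12.6% of all tested genes. Of 6 binding proteins 3 rose and 1 fell, and of 10 other genes 5 rose and 3 fell. The angiopoietin-like genes were sorted as ligands, of which Angptl6, Angptl7 and Angptl8 rose and Angptl2 fell. Ligands and receptors with other names, such as Egf, Areg, Jag1, Insr and Tek, were counted among the partners and not in these shares. The sorting used known products but was made after the counts had been viewed, and no test of the difference between roles was run. All counts by family and partner list given below are to be read beside the 39.3% and 35.3% of all tested genes.

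The split depended in part on scaling. With libraries scaled by their size alone, 37 genes were higher and 20 lower, so that 64.9% of the calls were higher against 52.7% with TMM. Over all tested genes the share of calls that were higher went from 52.7% to 68.9% with the same change. That scaling moved the median of all tested genes from 0.059 to 0.35, and gave 20 higher and 5 lower ligands (median 0.96) and 8 higher and 12 lower receptors (median -0.098). Without tumour areas L4 and R5 the ligands stood at 14 higher and 6 lower and the receptors at 7 and 17.

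**Figure D1:**
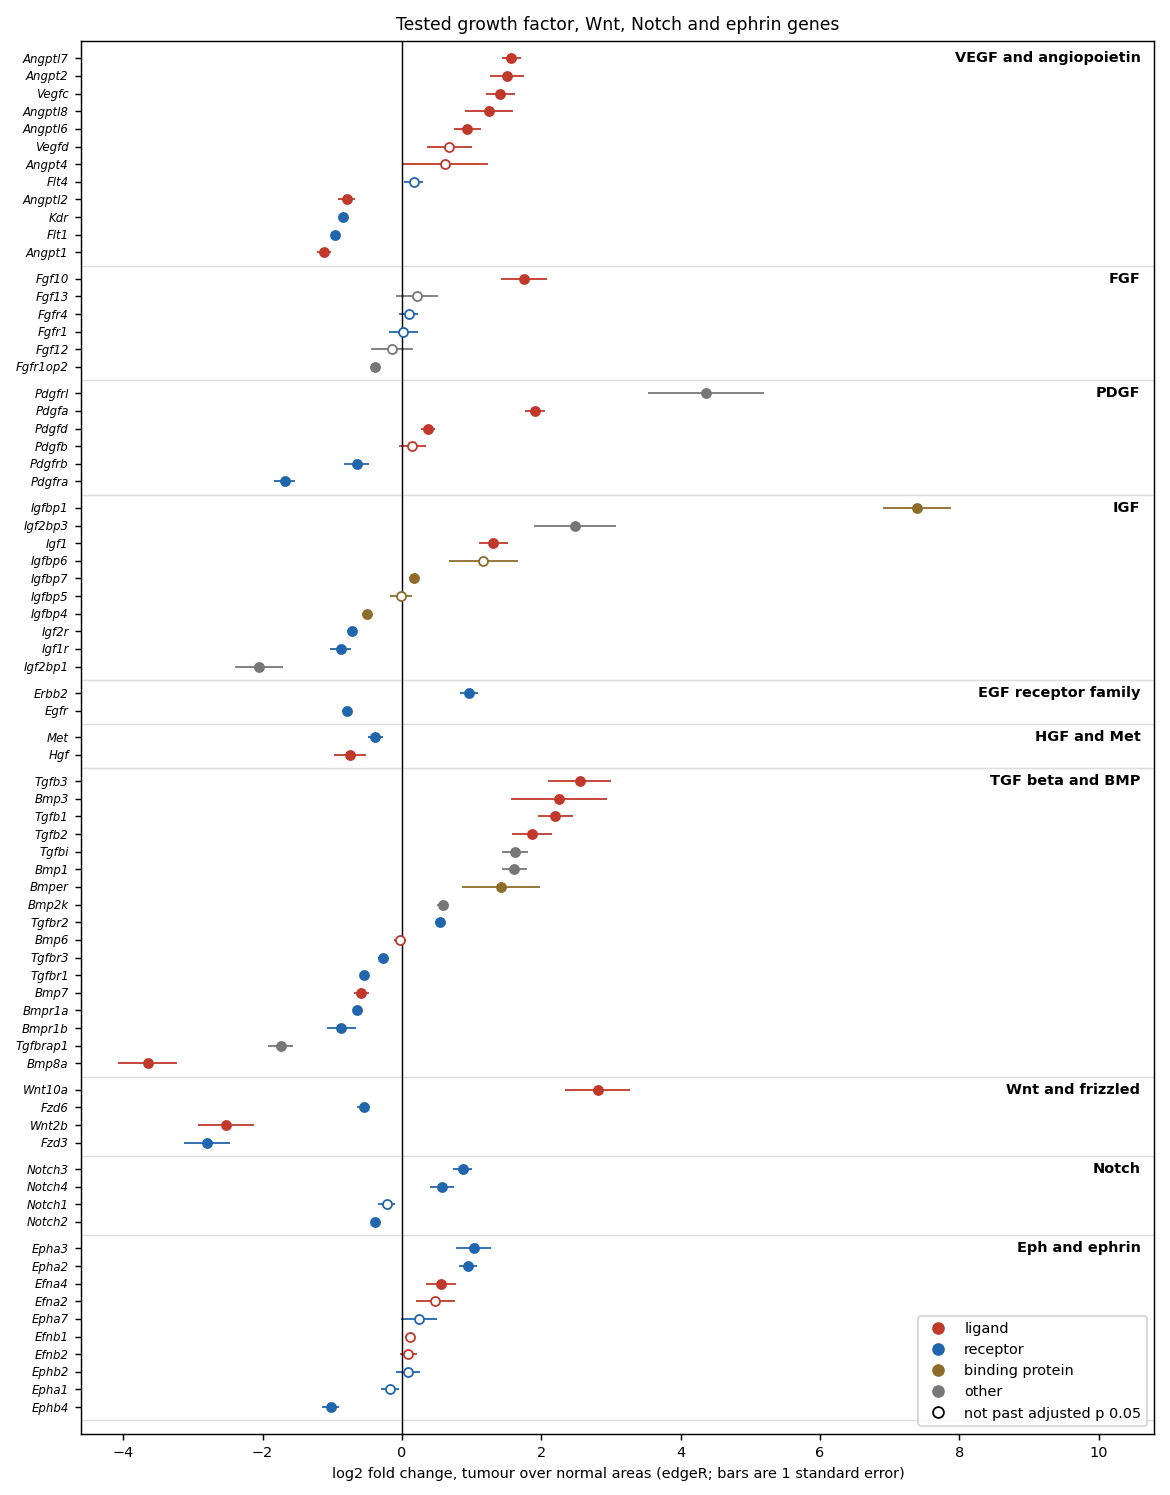
Log2 fold change (tumour over normal areas) of the 73 tested genes on the horizontal axis, by family, with bars of 1 standard error; colours give the role and open points did not pass an adjusted p of 0.05. Ligands such as Tgfb3 (2.55), Tgfb1 (2.20) and Pdgfa (1.91) lie to the right and receptors such as Pdgfra (-1.68), Flt1 (-0.96) and Igf1r (-0.88) to the left, while Wnt2b (-2.52) and Erbb2 (0.96) do the reverse.

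The areas were mixtures of cells. Vhl itself was lower in tumour (45.1 to 75.7 against 97.7 to 108 CPM) and Pbrm1 was not (log2 fold change -0.19 ± 0.11, edgeR adjusted p = 0.142). Summed CPM of proximal tubule markers was 10100 to 20211 in tumour and 38586 to 40745 in normal cortex, with 10 of 10 tested markers lower. Fibroblast and pericyte markers summed to 2307 to 6557 against 838.7 to 987.3 (12 of 12 higher) and leukocyte markers to 1451 to 3403 against 129.4 to 150.6 (10 of 11 higher). Endothelial markers summed to 892.2 to 1157 against 1311 to 1331 (7 tested, 2 higher and 4 lower), and podocyte markers to 969.1 to 1318 against 2608 to 2702 (6 of 6 lower). Area L4 held the most urothelial transcripts (1241, against 43.9 to 243.8 in the other tumour areas and 0.997 to 7.36 in normal cortex) and fat transcripts (914, against 21.1 to 264.6 and 40.9 to 64.9), followed by R5. In such bulk samples fewer cells of a type and less RNA per cell cannot be told apart. L4 was the highest tumour area for 38 of the 73 tested genes (52.1%), against 31.6% of all tested genes. In the table as a whole, 3989 genes (28.4%) had no count in any area, among them 41 of 115 ribosomal protein and proteasome genes, so a gene listed at 0 here may still be expressed. The same holds for the markers Sox17, Robo4, Erg, Vim, Ptprc, Cd2, Keg1, Pvalb, Wnk4, Cldn16 and Krt14, which had no count. Low counts may likewise understate expression: Ctnnb1 held 78 tumour and 40 normal counts, and Apc 4 and 5.

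**Figure D2:**
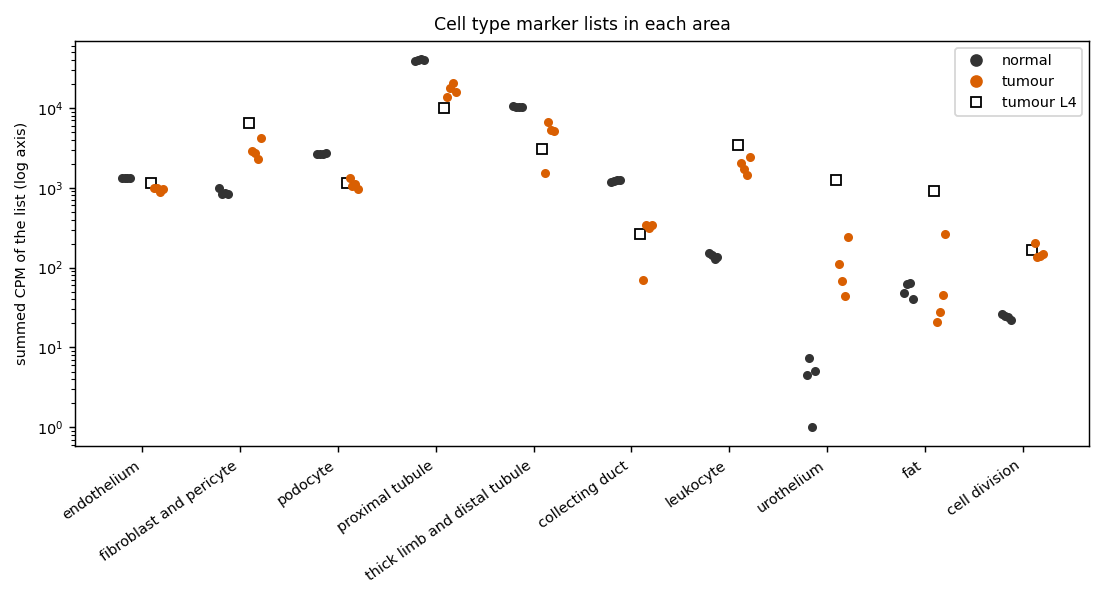
Summed CPM (log axis) of 10 marker lists in each normal area (dark points), each tumour area (orange points) and tumour area L4 (open squares). Tubule, podocyte and endothelial lists lie lower in tumour, and fibroblast, leukocyte and urothelial lists and cell division (135.6 to 201.5 against 21.9 to 26.4) lie higher, with L4 at the top of the fibroblast, leukocyte, urothelial and fat lists.

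Among the TGF beta and BMP genes, all 3 TGF beta ligands rose, by 3.67-fold to 5.77-fold, while 4 of 5 tested receptors fell. Of 17 tested genes of this family 9 rose (52.9%, against 39.3% of all tested genes) and 7 fell (41.2%, against 35.3%). Tgfb1 (ENSMUSG00000002603), the form most studied in fibrosis and immune control, stood at 37.9, 27.7, 25.6, 19 and 34.1 CPM in the tumour areas and 8.22, 4.23, 5.48 and 7.69 CPM in the normal areas. Tgfb2 stood at 26.2, 12.1, 14.3, 10.3 and 17.8 CPM in the tumour areas and 4.76, 4.91, 3.49 and 4.45 CPM in the normal areas, and Tgfb3 at 73.2, 25.2, 26, 15.7 and 36.8 CPM in the tumour areas and 8.65, 5.18, 4.82 and 5.87 CPM in the normal areas. For all 3 ligands every tumour area lay above every normal area, L4 was highest and R4 lowest. The changes were 4.5-fold for Tgfb1 (log2 fold change 2.20 ± 0.25, edgeR adjusted p = 2.02e-05), 3.67-fold for Tgfb2 (log2 fold change 1.87 ± 0.29, edgeR adjusted p = 0.000161) and 5.77-fold for Tgfb3 (log2 fold change 2.55 ± 0.45, edgeR adjusted p = 0.000434). The order of the tumour areas in Tgfb1, with L4 and R5 on top and R4 at the bottom, was that of the summed fibroblast and pericyte markers (6557 in L4, 4155 in R5 and 2307 in R4) and of the leukocyte markers (3403, 2438 and 1451); the part of these cells in the result was not tested.

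The receptors did not follow the ligands. Tgfbr2, the type II receptor that binds the ligand, rose 1.45-fold, with 614.3 to 759.9 CPM in tumour against 442.8 to 466.6 CPM in normal areas (log2 fold change 0.54 ± 0.068, edgeR adjusted p = 4.33e-05). Its partner Tgfbr1, the type I kinase, stood at 262.8, 255.2, 260.0, 236.7 and 257 CPM in the tumour areas and 361.1, 374.9, 380.0 and 365.2 CPM in the normal areas, and every tumour area lay below every normal area (log2 fold change -0.54 ± 0.047, edgeR adjusted p = 2.9e-06). The BMP receptors Bmpr1a (log2 fold change -0.65 ± 0.055, edgeR adjusted p = 2.42e-06) and Bmpr1b (log2 fold change -0.87 ± 0.21, edgeR adjusted p = 0.00354) fell as well. Bmpr1b was low throughout, at 5.57, 2.52, 5.08, 4.21 and 4.87 CPM in the tumour areas and 8.44, 8.86, 6.64 and 8.7 CPM in the normal areas. The coreceptor Tgfbr3, betaglycan, stood at 114.3 to 135.6 against 135.6 to 159.2 CPM (log2 fold change -0.27 ± 0.067, edgeR adjusted p = 0.00384), a small decrease that turned to 0.022 and did not pass when libraries were scaled by size alone. Tgfbrap1, a protein that associates with TGF beta receptors, fell 3.32-fold from 53.9, 57.4, 58 and 52 CPM in the normal areas to 11.8, 17.3, 18.5, 23.1 and 12.5 CPM in the tumour areas (log2 fold change -1.74 ± 0.18, edgeR adjusted p = 8.38e-06), the lowest 2 values being those of L4 and R5.

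BMP ligands moved in different directions. Bmp3, a BMP that antagonises others, stood at 17.1, 4.2, 3.27, 2.9 and 3.5 CPM in the tumour areas and 0.865, 1.77, 0.498 and 2.02 CPM in the normal areas. All tumour areas exceeded all normal areas, but L4 stood far above the other tumour areas and carried much of the fold change (log2 fold change 2.25 ± 0.69, edgeR adjusted p = 0.0129), which was 1.40 without L4 (edgeR adjusted p = 0.00316). L4 was also the area with the most urothelial and fat transcripts, whose part in the value was not tested. Bmp7, which maintains nephron progenitors and tubules, fell (74.5 to 114.6 against 143.7 to 153.8 CPM, log2 fold change -0.58 ± 0.11, edgeR adjusted p = 0.000894). Bmp6, a regulator of hepcidin, did not pass (189.3 to 251.5 against 211.3 to 222.6 CPM, log2 fold change -0.027), with a sign that changed with the scaling. Bmp8a, with 9 tumour and 85 normal counts, stood at 0.278, 0.336, 0.363, 0.436 and 0 CPM in the tumour areas and 3.89, 2.45, 4.98 and 3.85 CPM in the normal areas and was 13.4-fold lower (log2 fold change -3.65 ± 0.42, edgeR adjusted p = 2.01e-05). Its near-identical neighbour Bmp8b held 5 tumour and 1 normal counts, so the assignment of reads between the pair is uncertain.

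Among the other genes named for this family Bmp1, Tgfbi, Bmp2k and Bmper rose. Bmp1 is a protease that cleaves procollagen and chordin, not a BMP ligand, and stood at 36.2 to 68.9 against 14.8 to 20.3 CPM (log2 fold change 1.61 ± 0.18, edgeR adjusted p = 1.6e-05). Tgfbi, a matrix protein induced by TGF beta, stood at 85.5 to 180.1 against 37.6 to 49.4 CPM (log2 fold change 1.62 ± 0.19, edgeR adjusted p = 2.42e-05). Neither overlapped between the groups, and L4 was highest and R4 lowest in both. Bmp2k, a kinase of vesicle traffic, rose by 0.59 ± 0.088; 14% of its exon length lies on the opposite strand of Paqr3, which had at most 0.553 CPM on average. Bmper, a secreted BMP regulator, overlapped between the groups and lost its call in 5 of the 16 alternatives in which it was tested (log2 fold change 1.42 ± 0.56, edgeR adjusted p = 0.0409), among them without normal area L2, R1 or R2 (adjusted p = 0.082 to 0.0955).

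Of the partners of this family, from a list of 68 genes of which 40 were in the table, 25 were tested, 9 rose and 8 fell. Among the largest increases were Ltbp2, a latent TGF beta binding protein of the matrix (6.2 ± 1.65 CPM in tumour and 0.474 ± 0.204 CPM in normal areas, log2 fold change 3.64 ± 0.34, edgeR adjusted p = 4.9e-06), and Fstl1, a secreted follistatin-like protein (274.8 ± 75.5 CPM in tumour and 92.5 ± 4.14 CPM in normal areas, 1.57). The largest decreases were Skil, the Smad corepressor SnoN (3.08 ± 0.406 CPM in tumour and 13.8 ± 0.851 CPM in normal areas, -2.16), the activin receptor Acvr2a (66.2 ± 7.76 CPM in tumour and 139.5 ± 2.5 CPM in normal areas, -1.07) and Gdf10, a BMP-related ligand (23.1 ± 9.09 CPM in tumour and 41.7 ± 5.91 CPM in normal areas, -0.84). Gdf10 overlapped between the groups, with L4 highest of the tumour areas. Higher and lower genes were therefore found among partners in shares (36% and 32%) close to those of all tested genes.

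**Figure D3:**
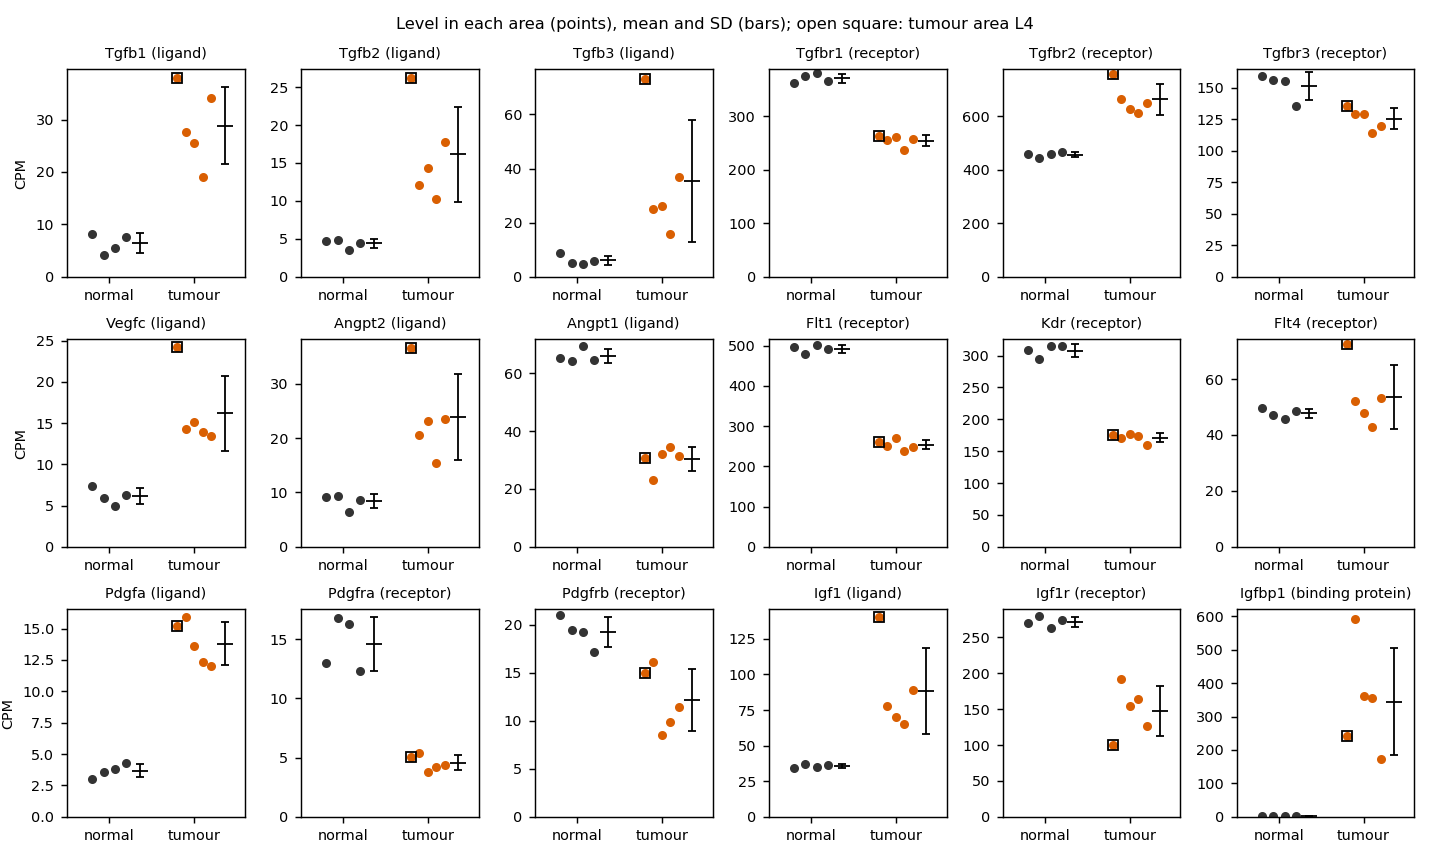
Level (CPM, linear axes from 0) of 18 genes in each normal area (dark) and tumour area (orange), with the mean and SD beside the points and tumour area L4 boxed. The ligands (Tgfb1, Tgfb2, Tgfb3, Vegfc, Angpt2, Pdgfa, Igf1) lie above the normal areas, and Tgfbr1, Flt1, Kdr, Pdgfra, Pdgfrb and Igf1r below them, whereas Tgfbr2 is higher, Flt4 overlaps and Angpt1 is lower.

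Vessel growth factors and their receptors showed a similar division, although the canonical ligand could not be read. Vegfa is listed at 0 in all 9 areas, a value that says nothing about its expression in a table where many common genes are listed at 0. Vegfc, which acts on lymphatic vessels through Flt4, stood at 24.2, 14.3, 15.1, 13.9 and 13.4 CPM in the tumour areas and 7.36, 5.86, 4.98 and 6.28 CPM in the normal areas. Tumour and normal areas did not overlap, and L4 stood above the other tumour areas (2.64-fold, log2 fold change 1.41 ± 0.21, edgeR adjusted p = 0.000142). Vegfd, the other Flt4 ligand, reached 78.4 CPM in L4 and 48.7 CPM in R5 but lay at 25.4 to 28.9 CPM in R2, R3 and R4, near the normal areas (24.4 to 27.3 CPM). Its difference did not pass (log2 fold change 0.68 ± 0.32, edgeR adjusted p = 0.0784), though it did without tumour R3 (adjusted p = 0.0394) or R4 (0.0433). Vegfb had 57 and 28 counts and was not tested.

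The angiopoietins moved apart. Angpt2, the context-dependent antagonist of the Tek receptor, stood at 36.7, 20.5, 23.2, 15.5 and 23.6 CPM in the tumour areas and 9.09, 9.41, 6.48 and 8.7 CPM in the normal areas. Angpt1, the Tek agonist that stabilises vessels, stood at 30.8, 23.2, 32, 34.4 and 31.3 CPM in the tumour areas and 65.3, 64.1, 69.4 and 64.6 CPM in the normal areas. No tumour area overlapped a normal area in either gene: Angpt2 was 2.84-fold higher (log2 fold change 1.51 ± 0.24, edgeR adjusted p = 0.000226) and Angpt1 2.17-fold lower (log2 fold change -1.12 ± 0.10, edgeR adjusted p = 4.62e-06). The ratio of Angpt2 to Angpt1 counts was 0.451 to 1.19 in tumour and 0.0933 to 0.147 in normal cortex; the ratio is not corrected for transcript length, so only its change can be read. About 14.2% of the Angpt1 exon length lies opposite a predicted gene, Gm17473. Reads from that strand may have been counted for Angpt1, since the strand setting was not given. Angpt4 overlapped between the groups (log2 fold change 0.62 ± 0.61, edgeR adjusted p = 0.375), with 7.24, 1.85, 1.45, 1.02 and 2.28 CPM in the tumour areas, highest in L4.

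The VEGF receptors of blood endothelium fell. Flt1, the VEGF receptor 1 that traps VEGF, stood at 261, 251.5, 269.8, 239 and 248.5 CPM in the tumour areas and 498.1, 478.4, 502.3 and 490.7 CPM in the normal areas. Kdr, the main signalling receptor, stood at 176, 170.3, 176.8, 173.5 and 158.9 CPM in the tumour areas and 308.1, 293.8, 314.9 and 314.2 CPM in the normal areas. Both showed narrow groups that did not overlap, with decreases of 1.94-fold (log2 fold change -0.96 ± 0.049, edgeR adjusted p = 1.28e-07) and 1.8-fold (log2 fold change -0.85 ± 0.048, edgeR adjusted p = 2.17e-07). Flt4, the lymphatic receptor, stood at 72.7, 52, 47.7, 42.8 and 53.1 CPM in the tumour areas and 49.5, 47.1, 45.8 and 48.6 CPM in the normal areas, and only L4 and, by a smaller margin, R2 and R5 exceeded all normal areas (log2 fold change 0.17 ± 0.14, edgeR adjusted p = 0.274). The Flt4 to Flt1 count ratio was 0.177 to 0.278 in tumour and 0.0913 to 0.0995 in normal cortex. Endothelial markers summed to 892.2 to 1157 CPM in tumour and 1311 to 1331 CPM in normal areas. The list was split, with 2 of 7 tested markers higher and 4 lower. Their part in the decrease of Flt1 and Kdr was not tested.

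The angiopoietin-like proteins, secreted relatives that do not bind Tek, were mixed. Angptl7 had the largest increase of the family, 165.6, 197.7, 242, 272 and 257.2 CPM in the tumour areas and 72.5, 74.6, 82.4 and 75.3 CPM in the normal areas. All tumour areas exceeded the normal areas, and L4 was the lowest tumour area (2.98-fold, log2 fold change 1.57 ± 0.14, edgeR adjusted p = 3.33e-06). Angptl6 (0.94 ± 0.19) and Angptl8 (1.25 ± 0.35) rose from low levels, and Angptl8 lost its call when only areas with the letter R were used (adjusted p = 0.0506). Angptl2 fell (100.5 to 159.9 against 202.9 to 237.6 CPM, log2 fold change -0.79 ± 0.12, edgeR adjusted p = 0.000135). About 16.8% of Angptl6 exon length lies opposite A230050P20Rik, which had no count. Of 12 tested genes of this family 5 rose (41.7%, against 39.3% of all tested genes) and 4 fell (33.3%, against 35.3%).

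Among 7 tested partners (of 11 listed and 8 in the table) 1 rose and 3 fell. Nrp1, the VEGF coreceptor neuropilin 1, rose (769.9 ± 62.7 CPM in tumour and 563.9 ± 9.54 CPM in normal areas, log2 fold change 0.45 ± 0.069, edgeR adjusted p = 0.00016). Tek, the angiopoietin receptor, fell most (5.76 ± 1.11 CPM in tumour and 19.6 ± 1.98 CPM in normal areas, log2 fold change -1.77 ± 0.16, edgeR adjusted p = 3.28e-06). Sema3e, a guidance cue of vessels (-1.01), and Svep1, a matrix protein of lymphatic growth (-0.79), fell as well.

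For PDGF, too, a ligand rose and the receptors fell. Pdgfa (ENSMUSG00000025856), which acts on Pdgfra, stood at 15.2, 15.9, 13.6, 12.3 and 12 CPM in the tumour areas and 3.03, 3.55, 3.82 and 4.25 CPM in the normal areas. Its tumour values lay close together and all above the normal ones, an increase of 3.77-fold (log2 fold change 1.91 ± 0.15, edgeR adjusted p = 1.54e-06). About 26.1% of Pdgfa exon length lies opposite 6330403L08Rik, which is not among the genes of the table. Whether reads from that strand were counted for Pdgfa is not known, since the strand setting was not given. Pdgfra, the receptor of mesenchymal cells, stood at 5.01, 5.37, 3.81, 4.21 and 4.41 CPM in the tumour areas and 13, 16.8, 16.3 and 12.3 CPM in the normal areas. It fell 3.2-fold with no overlap (log2 fold change -1.68 ± 0.15, edgeR adjusted p = 3.85e-06). Pdgfrb, the receptor of pericytes and mesangial cells, stood at 15, 16.1, 8.53, 9.87 and 11.4 CPM in the tumour areas and 21, 19.5, 19.3 and 17.2 CPM in the normal areas. All tumour areas were lower (log2 fold change -0.65 ± 0.18, edgeR adjusted p = 0.00767), but with libraries scaled by size alone the decrease did not pass (-0.35, adjusted p = 0.138). Both receptors fell while markers of fibroblasts and pericytes, the cells that usually express them, summed to 2307 to 6557 CPM in tumour and 838.7 to 987.3 CPM in normal areas. The part of these cells in the 2 decreases was not tested.

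Pdgfb, the main ligand of Pdgfrb, overlapped between the groups, 6.68, 5.54, 5.81, 3.78 and 4.72 CPM in the tumour areas and 4.98, 5.32, 4.48 and 4.25 CPM in the normal areas (log2 fold change 0.15 ± 0.19, edgeR adjusted p = 0.48). The count ratio of Pdgfa to Pdgfb was 2.27 to 3.27 in tumour and 0.609 to 1.0 in normal cortex. Pdgfd rose slightly with overlap (52.6 to 72 against 45.2 to 53.1 CPM, log2 fold change 0.37 ± 0.10, edgeR adjusted p = 0.00723). Pdgfrl, a PDGF receptor-like protein without a kinase, had the largest change of the family, 12.8, 2.85, 2.18, 2.9 and 7.46 CPM in the tumour areas and 0, 0.409, 0.332 and 0.202 CPM in the normal areas. It was highest in L4 and R5, and rested on 190 tumour and 6 normal counts (log2 fold change 4.36 ± 0.83, edgeR adjusted p = 0.000735). Of 6 tested genes 3 rose and 2 fell. Of 5 tested partners (6 listed, 6 in the table) 3 rose and 1 fell: Mmp14, a membrane metalloprotease (135.1 ± 53.3 CPM in tumour and 26.5 ± 2.89 CPM in normal areas, 2.36), and the receptor adaptors and effectors Grb2 (0.96) and Plcg1 (0.69) rose, and Pik3r1, a regulatory subunit of PI3 kinase, fell (-0.26).

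Igfbp1 had the largest fold change of all tested genes of the set. Igfbp1 (ENSMUSG00000020429) encodes a secreted protein that binds IGFs, is made mainly by liver and is repressed by insulin. It stood at 241.5, 592, 360.7, 356.8 and 173.6 CPM in the tumour areas and 1.95, 3, 1.16 and 1.82 CPM in the normal areas. The lowest tumour area (R5) was 57.9 times the highest normal area (L2), and the tumour areas ranged 3.41-fold among themselves with R2 highest. The increase was 173.9-fold (log2 fold change 7.39 ± 0.49, edgeR adjusted p = 5.04e-07), and 10848 of its reads were counted in tumour and 47 in normal cortex. L4, which held the most urothelial, fat and fibroblast transcripts, was the fourth of the 5 tumour areas for Igfbp1. Its promoter, printed above, holds a hypoxia element core, as do 38.6% of all promoters.

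The other IGF binding proteins changed less. Igfbp4, known to restrain IGF action, fell (1410 to 1695 against 2030 to 2272 CPM, log2 fold change -0.50 ± 0.074, edgeR adjusted p = 0.000128). Igfbp7, made by endothelium, was slightly higher (1611 to 1832 against 1472 to 1558 CPM, log2 fold change 0.17 ± 0.062, edgeR adjusted p = 0.0273); that call was lost in 6 of 21 alternatives, among them without tumour R3 (adjusted p = 0.0554) and without normal L1, R1 or R2 (0.0771, 0.088 and 0.0807). Igfbp5 did not pass (-0.010), with a sign that changed in 7 alternatives, and it passed in the opposite direction without tumour L4 and R5 (0.21, edgeR adjusted p = 0.0468). Igfbp6 stood at 27.3, 7.72, 6.17, 4.65 and 11 CPM in the tumour areas, where L4 was far above the rest, and at 3.89 to 6.14 CPM in the normal areas. It did not pass (log2 fold change 1.17 ± 0.50, edgeR adjusted p = 0.053), yet passed in 8 alternatives, among them without tumour R2, R3 or R4 (adjusted p = 0.0482, 0.0374 and 0.0207). Igfbp2 and Igfbpl1 are listed at 0.

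Igf1 rose while both IGF receptors fell. Igf1, the growth factor, stood at 140.5, 77.7, 70.1, 65.3 and 89 CPM in the tumour areas and 34.2, 37.2, 35.2 and 36.2 CPM in the normal areas. Every tumour area was above the normal areas, with L4 highest (2.48-fold, log2 fold change 1.31 ± 0.21, edgeR adjusted p = 0.000232). Igf1r, its kinase receptor, stood at 100.2, 191.6, 155, 163.9 and 126 CPM in the tumour areas and 269.8, 280.3, 263.6 and 273.9 CPM in the normal areas. Igf2r, the mannose 6-phosphate receptor that clears IGF2, stood at 264.9, 309.4, 315.9, 343.7 and 316.4 CPM in the tumour areas and 529, 505.6, 500.0 and 493.8 CPM in the normal areas. Neither overlapped between groups, and L4, the highest for Igf1, was the lowest for both receptors (log2 fold change -0.88 ± 0.15, edgeR adjusted p = 0.000385 for Igf1r and log2 fold change -0.71 ± 0.071, edgeR adjusted p = 7.57e-06 for Igf2r). Macrophages and fibroblasts are known sources of Igf1, and leukocyte markers were also highest in L4 (3403 CPM, against 1451 to 2438 CPM in the other tumour areas); their part in the increase was not tested.

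Of the proteins that bind Igf2 mRNA, Igf2bp1 fell and Igf2bp3 rose. Igf2bp1 stood at 4.45, 1.34, 7.81, 6.68 and 7.46 CPM in the tumour areas and 23.8, 22, 19.1 and 27.3 CPM in the normal areas (4.15-fold lower, log2 fold change -2.05 ± 0.34, edgeR adjusted p = 0.000282). Igf2bp3, a protein of embryonic tissue and of some tumours, stood at 1.67, 5.71, 2, 4.21 and 2.89 CPM in the tumour areas and 1.08, 0.409, 0.83 and 0 CPM in the normal areas (log2 fold change 2.49 ± 0.59, edgeR adjusted p = 0.00291). Neither overlapped, but Igf2bp3 rested on 105 and 13 counts. About 18.7% of the Igf2bp3 exon length lies opposite Malsu1, which averaged 4.57 CPM in tumour and 5.32 CPM in normal areas. The part of Malsu1 reads in the Igf2bp3 value was not tested. Igf2bp2 is listed at 0. Of 10 tested genes of the family 4 rose (40%, against 39.3% of all tested genes) and 4 fell (40%, against 35.3%). All 5 called partners among 6 tested (13 listed, 8 in the table) fell: Insrr, an insulin receptor relative (2.28 ± 0.441 CPM in tumour and 10.9 ± 1.33 CPM in normal areas, log2 fold change -2.25 ± 0.17, edgeR adjusted p = 1.2e-06), Pappa, the protease that cleaves Igfbp4 (15.6 ± 6.15 CPM in tumour and 53.3 ± 1.56 CPM in normal areas, -1.77), and the insulin receptor substrate Irs2 (-1.57), and also Insr, the insulin receptor (278.3 ± 25.4 CPM in tumour and 578.4 ± 6.13 CPM in normal areas, -1.06), and Stc1, an inhibitor of Pappa (-0.72). The last 2 were named after their values were seen.

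**Figure D4:**
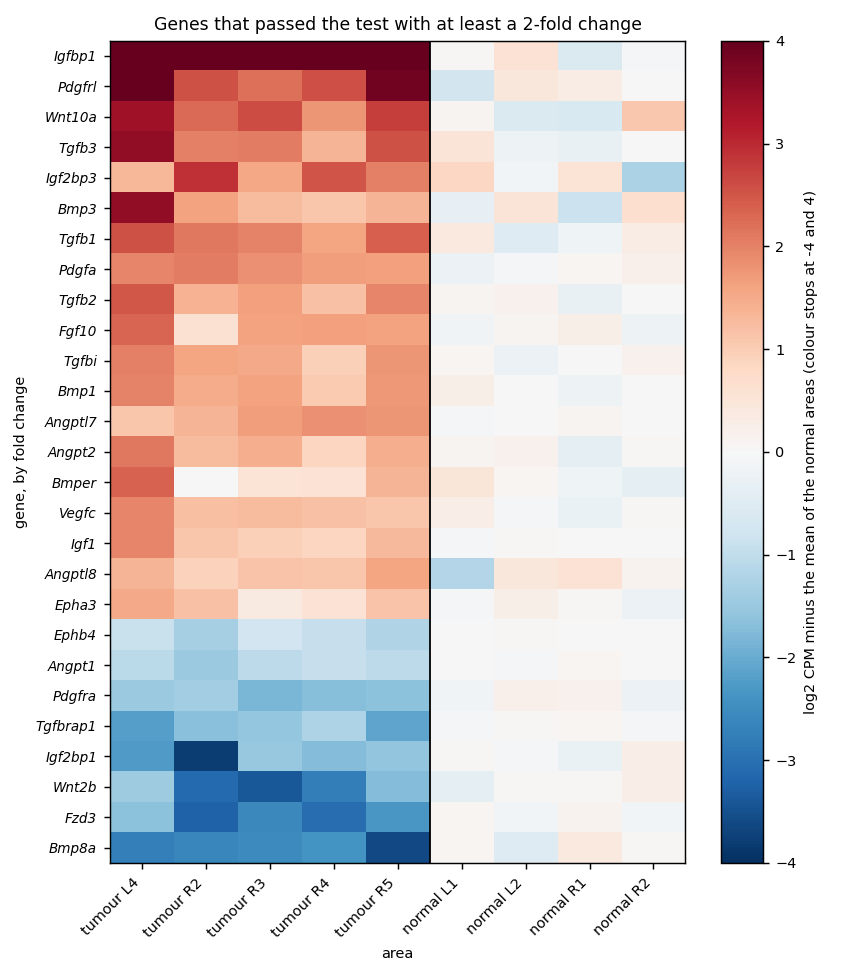
Log2 CPM of each area minus the mean of the normal areas, for the 27 genes that passed the test with at least a 2-fold change, ordered by fold change; the colour scale ends at 4 and -4. The 19 higher genes (Igfbp1 at the top) are red across the tumour columns, with Bmper in R2 at the normal level, and the 8 lower genes (Bmp8a at the bottom) are blue in every tumour column.

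Within the EGF receptor family the 2 counted receptors moved in opposite directions. Egfr, which binds EGF, stood at 124.2, 127, 145.8, 159 and 141.2 CPM in the tumour areas and 237.8, 250.4, 238 and 237.3 CPM in the normal areas. Erbb2, which has no ligand of its own and pairs with other members, stood at 21.9, 28.9, 25.2, 27 and 27.5 CPM in the tumour areas and 16, 11.6, 12.1 and 14.2 CPM in the normal areas. Neither overlapped between groups: Egfr fell 1.73-fold (log2 fold change -0.79 ± 0.073, edgeR adjusted p = 4.51e-06) and Erbb2 rose 1.94-fold (log2 fold change 0.96 ± 0.13, edgeR adjusted p = 5.61e-05). The Erbb2 to Egfr count ratio was 0.17 to 0.227 in tumour and 0.0463 to 0.0673 in normal cortex, a shift seen in every area. Erbb3 and Tgfa were not analysed here. Of 9 tested partners (17 listed, 13 in the table) 1 rose (11.1%, against 39.3% of all tested genes) and 5 fell (55.6%, against 35.3%). Cbl, the ubiquitin ligase that sends Egfr to degradation, fell most (12 ± 1.86 CPM in tumour and 90.9 ± 6.2 CPM in normal areas, log2 fold change -2.93 ± 0.11, edgeR adjusted p = 2.46e-08). The ligands Egf (811.4 ± 431.7 CPM in tumour and 2754 ± 85.9 CPM in normal areas, -1.76), a product of the distal tubule, and Hbegf (0.732 ± 0.464 CPM in tumour and 2.68 ± 0.525 CPM in normal areas, -1.86) fell. So did the receptor inhibitor Lrig1 (-1.40) and its relative Lrig2 (-0.13), which overlapped between the groups. Lrig1 and Lrig2 were named after their values were seen. Areg, amphiregulin, rose: it stood at 1.95, 2.68, 0.545, 2.47 and 1.52 CPM in the tumour areas with no count in any normal area, and was likewise named after its values were seen. Thick limb and distal tubule markers summed to 1518 to 6734 CPM in tumour and 10179 to 10430 CPM in normal areas, and Egf was lowest in R2, as they were; their part in the decrease of Egf was not tested.

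Hgf and its receptor both fell. Met, the receptor of tubule epithelium, stood at 389.3, 528.4, 572.4, 563.6 and 463.7 CPM in the tumour areas and 649.1, 683.7, 663.2 and 627.8 CPM in the normal areas. Hgf, made by stromal cells, stood at 1.67, 3.02, 1.45, 1.89 and 2.59 CPM in the tumour areas and 3.46, 3.41, 3.82 and 3.64 CPM in the normal areas. The groups did not overlap for either gene (log2 fold change -0.38 ± 0.11, edgeR adjusted p = 0.00753 for Met and log2 fold change -0.75 ± 0.23, edgeR adjusted p = 0.0117 for Hgf). With libraries scaled by size alone neither passed (-0.098, adjusted p = 0.297, and -0.46, adjusted p = 0.0964), and Hgf, with 68 and 82 counts, was also lost among areas with the letter R (adjusted p = 0.0802). Of 5 tested partners (10 listed, 10 in the table) Spint2, an inhibitor of the proteases that activate HGF, rose (909 ± 44.8 CPM in tumour and 482.9 ± 8.25 CPM in normal areas, log2 fold change 0.91 ± 0.055, edgeR adjusted p = 3.07e-07), and the adaptor Gab1 (-0.56) and the Met-binding semaphorin receptor Plxnb1 (-0.60) fell.

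Few FGF genes could be tested, and few of those changed. Fgf10, a mesenchymal growth factor of branching epithelia, stood at 14.6, 4.2, 8.71, 9 and 8.67 CPM in the tumour areas and 2.38, 2.86, 3.16 and 2.23 CPM in the normal areas. All tumour areas lay above the normal areas, with L4 highest and R2 lowest (3.4-fold, log2 fold change 1.75 ± 0.33, edgeR adjusted p = 0.000665). The receptors gave no call: Fgfr1 stood at 13.8, 8.39, 10.3, 8.28 and 11 CPM in the tumour areas and 14.1, 8.73, 10.3 and 8.1 CPM in the normal areas (log2 fold change 0.019 ± 0.21, edgeR adjusted p = 0.939), and Fgfr4 at 73.1 to 117.5 against 92.1 to 111.6 CPM (log2 fold change 0.095 ± 0.13, edgeR adjusted p = 0.534), passing without tumour L4 (0.21, adjusted p = 0.0239). Fgf12 (-0.14) and Fgf13 (0.22), which stay inside cells and bind sodium channels, did not pass. Fgfr1op2, named for a fusion with Fgfr1 and no part of the pathway, was 207.4, 202.2, 184.3, 194.9 and 201.9 CPM in the tumour areas and 259, 258, 260.3 and 264.6 CPM in the normal areas, a small decrease without overlap (log2 fold change -0.39 ± 0.047, edgeR adjusted p = 2.51e-05) that did not pass with library size alone (-0.10, adjusted p = 0.18). Fgf1 was not analysed here. Of 6 tested genes 1 rose and 1 fell. Both tested partners (22 listed, 8 in the table) fell: Kl, klotho, the coreceptor of Fgf23 in the distal tubule (1277 ± 371.3 CPM in tumour and 4560 ± 162 CPM in normal areas, log2 fold change -1.84 ± 0.20, edgeR adjusted p = 1.23e-05), and Il17rd, an FGF signal inhibitor (38.7 ± 4.34 CPM in tumour and 58.8 ± 4.53 CPM in normal areas, -0.60).

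Among the tested Wnt genes 1 ligand rose, and a ligand and both tested frizzled receptors fell. Wnt10a, a Wnt of skin and tooth epithelium, stood at 15.3, 6.88, 8.9, 4.79 and 9.89 CPM in the tumour areas and 1.3, 0.682, 0.664 and 2.83 CPM in the normal areas. All tumour areas exceeded all normal areas, and normal R2 stood above the other normal areas. The increase was 6.68-fold (log2 fold change 2.81 ± 0.47, edgeR adjusted p = 0.000326), and 3.40 on the log2 scale without normal R2. Wnt2b stood at 2.37, 0.503, 0.363, 0.726 and 1.83 CPM in the tumour areas and 5.19, 7.09, 7.14 and 8.3 CPM in the normal areas and fell 5.99-fold (log2 fold change -2.52 ± 0.40, edgeR adjusted p = 0.000212). Fzd3, a frizzled of planar polarity, stood at 1.67, 0.336, 0.726, 0.436 and 0.913 CPM in the tumour areas and 6.27, 5.46, 6.64 and 5.47 CPM in the normal areas and fell 7.3-fold (log2 fold change -2.80 ± 0.33, edgeR adjusted p = 2.31e-05). In both, R2, R3 and R4 were the lowest and L4 the highest of the tumour areas, still below the normal ones. Fzd6, the more highly counted receptor, stood at 54.8, 39.6, 53.7, 48.4 and 43.8 CPM in the tumour areas and 70.8, 75.3, 66.1 and 69.8 CPM in the normal areas (log2 fold change -0.55 ± 0.099, edgeR adjusted p = 0.00049). Wnt5a was not analysed here, and Wnt2 is listed at 0.

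Of 34 tested Wnt partners (66 listed, 50 in the table) 14 rose and 10 fell, shares of 41.2% and 29.4% against 39.3% and 35.3% of all tested genes. The largest increases were Sfrp4, a secreted Wnt antagonist (70.6, 9.4, 6.72, 8.42 and 23 CPM in the tumour areas and 0.273 to 1.01 CPM in the normal areas, log2 fold change 5.13 ± 1.01, edgeR adjusted p = 0.0009), Tcf7, the TCF1 transcription factor typical of T cells (74.4 ± 27 CPM in tumour and 3.65 ± 1.43 CPM in normal areas, 4.36), and Tnik, a kinase that binds TCF proteins (4.01 ± 0.961 CPM in tumour and 0.539 ± 0.249 CPM in normal areas, 2.88). Sfrp4 was highest in L4 and next in R5, and Tcf7 had the same 2 areas on top, as had the leukocyte markers (3403 and 2438 CPM). The largest decreases were the Wnt transducer Dvl3 (15.1 ± 2.48 CPM in tumour and 42.9 ± 3.87 CPM in normal areas, -1.51), the antagonist Sfrp1 (562.6 ± 176.7 CPM in tumour and 1399 ± 69.3 CPM in normal areas, -1.31) and Daam2, an effector of planar polarity (61 ± 8.86 CPM in tumour and 142.2 ± 7.55 CPM in normal areas, -1.22). Secreted antagonists of the SFRP group thus included both higher and lower genes.

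The 4 Notch receptors were all tested, and 2 rose and 1 fell. Notch3, the receptor of pericytes and vascular smooth muscle, stood at 133.5, 107.2, 101.8, 87.4 and 117.5 CPM in the tumour areas and 71.2, 56.2, 58.5 and 54.3 CPM in the normal areas. Every tumour area was higher (1.82-fold, log2 fold change 0.87 ± 0.13, edgeR adjusted p = 0.000106), in the order L4, R5, R2, R3, R4 that the fibroblast and pericyte marker sum also had (6557, 4155, 2872, 2705 and 2307 CPM); the part of these cells was not tested. Notch4, the endothelial receptor, stood at 12.1, 9.4, 14.9, 10.3 and 9.44 CPM in the tumour areas and 6.49, 7.5, 8.64 and 7.29 CPM in the normal areas (log2 fold change 0.58 ± 0.17, edgeR adjusted p = 0.0101), with a call lost among areas with the letter R (0.45, adjusted p = 0.141). Notch2, which specifies proximal tubule and podocytes in development, was nearly constant within groups, 200.6, 200.0, 197.3, 203.3 and 201 CPM in the tumour areas and 275.4, 271.8, 253.6 and 253.5 CPM in the normal areas (log2 fold change -0.39 ± 0.044, edgeR adjusted p = 1.75e-05), and did not pass with library size alone (-0.10, adjusted p = 0.0936). Notch1 stood at 144.8, 118.6, 106.6, 87.3 and 123.4 CPM in the tumour areas and 138.5, 134.3, 134.9 and 133.6 CPM in the normal areas, with L4 above the normal areas and the other tumour areas below them. It did not pass (log2 fold change -0.22 ± 0.12, edgeR adjusted p = 0.116), but passed without L4 (-0.30, adjusted p = 0.0134), and its sign turned with library size alone (0.081). The Notch3 to Notch2 count ratio was 0.43 to 0.666 in tumour and 0.207 to 0.258 in normal cortex.

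Of 12 tested Notch partners (44 listed, 29 in the table) 6 rose (50%, against 39.3% of all tested genes) and 3 fell (25%, against 35.3%). Mfng, a fringe that modifies Notch sugars (30.9 ± 11.3 CPM in tumour and 8.68 ± 1.41 CPM in normal areas, log2 fold change 1.83 ± 0.26, edgeR adjusted p = 0.0001), and the deltex proteins Dtx3 (31.8 ± 4.05 CPM in tumour and 14.2 ± 2.01 CPM in normal areas, 1.17) and Dtx4 (273.6 ± 31.7 CPM in tumour and 137.6 ± 8.94 CPM in normal areas, 0.99) rose most. The ligands Jag1 (64 ± 18.9 CPM in tumour and 33.5 ± 3.63 CPM in normal areas, 0.94) and Jag2 (21.3 ± 8.55 CPM in tumour and 12.3 ± 0.805 CPM in normal areas, 0.80) were also higher and Dll4, the endothelial ligand, did not pass (31.5 ± 4.87 CPM in tumour and 28.2 ± 2.46 CPM in normal areas, 0.16); these ligands were named after their values were seen. Mib1, the ubiquitin ligase needed in ligand-presenting cells, fell most (85.5 ± 12.2 CPM in tumour and 317 ± 14.7 CPM in normal areas, log2 fold change -1.89 ± 0.095, edgeR adjusted p = 1.07e-07), and Spen, a corepressor, also fell (-0.23).

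Most tested Eph receptor and ephrin genes did not pass: of 10 tested genes 3 rose (30%, against 39.3% of all tested genes) and 1 fell (10%, against 35.3%). Epha2, a receptor of epithelial cells, stood at 42.5, 32.2, 30.7, 30.1 and 32.4 CPM in the tumour areas and 15.1, 18.8, 15.6 and 19.8 CPM in the normal areas. Epha3 stood at 17.1, 13.4, 7.44, 8.71 and 13.2 CPM in the tumour areas and 5.63, 6.82, 5.98 and 4.86 CPM in the normal areas. Both were higher in every tumour area, with L4 on top (log2 fold change 0.95 ± 0.13, edgeR adjusted p = 8.63e-05 for Epha2 and log2 fold change 1.03 ± 0.25, edgeR adjusted p = 0.00335 for Epha3). Ephb4, the receptor of veins, stood at 22, 16.1, 24.1, 21.8 and 17.7 CPM in the tumour areas and 40.5, 42.7, 40.4 and 41.5 CPM in the normal areas and fell 2.03-fold without overlap (log2 fold change -1.02 ± 0.12, edgeR adjusted p = 2.01e-05). Efna4, an ephrin ligand, overlapped between the groups (log2 fold change 0.56 ± 0.21, edgeR adjusted p = 0.033) and lost its call in 8 of 21 alternatives, among them without tumour L4 (adjusted p = 0.0603), R2 (0.0519) or R3 (0.0634) and without normal L1 (0.0616), L2 (0.102) or R1 (0.0976). A share of 10.5% of its exon length lies opposite another gene, 4731419I09Rik. Efnb2, the arterial partner of Ephb4, did not pass (98.6 to 152.7 against 100.1 to 107.5 CPM, 0.094), with L4 alone far above the rest, and its sign turned without L4 (-0.034). Efnb1 (0.11), Epha1 (-0.17), Epha7 (0.25) and Ephb2 (0.086) did not pass, nor did Efna2 (0.48, adjusted p = 0.138 in edgeR), which passed without tumour R4 (0.63, adjusted p = 0.0316). Efna1 held 20 tumour and 7 normal counts and was not tested.

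Of 6 tested Eph partners (14 listed, 9 in the table) 3 rose and 1 fell. Tiam1, a Rac activator (12.5 ± 4.2 CPM in tumour and 1.68 ± 0.561 CPM in normal areas, log2 fold change 2.85 ± 0.32, edgeR adjusted p = 1.56e-05), and the adaptor Nck2 (0.24) and Nisch (0.15) rose, and the Abl-family kinase Abl2 fell (105 ± 7.8 CPM in tumour and 325.2 ± 12.5 CPM in normal areas, log2 fold change -1.63 ± 0.061, edgeR adjusted p = 2.42e-08). Over all 10 families 111 partners were tested of 271 listed and 181 in the table. Of these 38 rose (34.2%, against 39.3% of all tested genes) and 40 fell (36%, against 35.3%), with a median log2 fold change of 0.026.

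Among the 23 counted but untested genes were Angptl1, Angptl4, Vegfb, Fgf2, Fgf4, Fgf7, Fgf11, Fgf14, Fgf20, Fgfr1op, Fgfr2, Igfn1, Bmp5, Bmp8b, Wnt10b, Wnt11, Wnt16, Efna1, Epha4, Epha6, Epha8 and Ephb6. In all 10 had at most 10 counts over the 9 areas. With no filter on low counts, 6 of the 23 passed in edgeR. Among them Angptl1 (-2.40) and Epha4 (-1.68) were lower, and Fgf7 (3.53), Epha8 (3.25) and Ephb6 (1.66) higher. Ephb6 had 92 tumour and 20 normal counts with no overlap of the groups. Fgf7, a stromal factor for epithelium, had 7 tumour counts and 0 normal counts, a depth-adjusted ratio of 1.67 when 3 counts are put in for the normal areas, with a 95% exact lower limit of 1.03 on the counts themselves. For Epha8 the ratio of 33 to 2 counts, adjusted for depth, was 11.8 (95% exact interval 3.01 to 101.3, for counting error only). The 14 genes listed at 0 everywhere were Epha10, Ephb3, Fgf5, Fgf8, Fgfr3, Fgfrl1, Igf2bp2, Igfbp2, Igfbpl1, Igflr1, Tgfb1i1, Tgfbr3l, Vegfa and Wnt2, and nothing can be said of their levels.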

How the data were processed

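The authors' deposited table holds raw read counts per Ensembl gene, 1 column for each of the 9 areas. Per the labels' protocols, poly(A) RNA was made into TruSeq libraries and sequenced as paired ends. STAR 2.3, HTSeq, edgeR and build mm9 are named per the submitters' processing notes. What each did, the annotation, the strand setting and any filter were not given in the sources used here. Of 14052 identifiers 14026 matched a mouse symbol. Every column belonged to a sample.

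Counts were analysed with edgeR 4.0.16 (R 4.3.3): filterByExpr by group (minimum count 10, minimum total 15), TMM factors (1.04 to 1.17 in tumour, 0.89 to 0.9 in normal areas), quasi-likelihood test with group as the only term, and Benjamini-Hochberg adjustment over 7020 genes. The common biological coefficient of variation was 0.152. Depth is given in the text above. The steps were run on simulated counts drawn independently for each area, which does not address areas from 1 mouse or mixtures of cells. Counts of 2 areas of a group always differed by more than counting noise (chi-square per degree of freedom 4.79 to 60.8 between tumour areas and 1.5 to 2.49 between normal ones). Each area counted as 1 sample, but this spread does not show that the areas came from different mice. Exon overlaps came from GENCODE M21 and promoters from a RefSeq table (GRCm38.p6), neither the build of the counts.

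The genes, lists and tests were chosen with earlier results of these data known. Values per area are given for up to 3 called genes per family and direction by fold change, if the higher group averaged 2 CPM or more and the areas did not overlap, for a fixed set (Vegfa, Kdr, Flt1, Flt4, Egfr, Erbb2, Erbb3, Tgfa, Met, Hgf, Pdgfb, Pdgfrb, Tgfb1, Bmpr2, Igf1, Igf1r, Fgfr1, Fgf1, Notch1, Wnt5a, Epha2 and Efna1) and where a contrast turns on them. Tgfb2, Tgfbr1, Angpt4, Igfbp6 and Vegfd were given so after their values were seen. Bmpr2 was not analysed here. Up to 3 called partners per list and direction are named. A few genes that are included in the counts are not reported here by name. Alternatives changed the scaling (RLE, upper quartile, or library size only), the filter (none, or 1 CPM in 4 areas), the test (DESeq2 1.42.0, limma-voom with limma 3.58.1, edgeR's exact or robust test) and the samples or covariate (area letter, R areas only, each area left out, L4 and R5 both left out). Tables and plots used Python 3.11.15, pandas 2.3.3, scipy 1.17.1 and matplotlib 3.10.9.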

Additional observations from a re-analysis of the deposited data

Results flagged for a closer look

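Each tested gene's CPM was examined in the 5 tumour and the 4 normal areas for an area that stood apart from the rest of its group by Dixon's criterion. The criterion flags about 1 in 20 groups by chance if they are independent, which genes of the same areas are not. Of the 146 groups examined 8 had such an area. L4 accounted for 6 of them, all as the highest tumour area: Vegfc (24.2 CPM, against 13.4 to 15.1 CPM in the other tumour areas), Angpt4 (7.24, against 1.02 to 2.28), Igfbp6 (27.3, against 4.65 to 11), Bmp3 (17.1, against 2.9 to 4.2), Efnb2 (152.7, against 98.6 to 106.4) and Epha2 (42.5, against 30.1 to 32.4). L4 also held the most urothelial (1241 CPM), fat (914 CPM) and fibroblast (6557 CPM) marker transcripts, whose part in these values was not tested. In the normal areas, Egfr was highest in L2 (250.4 CPM, against 237.3 to 238 CPM) and Tgfbr3 lowest in R2 (135.6 CPM, against 155.3 to 159.2 CPM).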

How the results depend on the processing

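Over 21 alternatives, 44 of 55 called genes kept their direction and their call, 10 lost the call in at least 1 (Angptl8, Fgfr1op2, Pdgfrb, Igfbp7, Hgf, Met, Bmper, Notch2, Notch4 and Efna4), and Tgfbr3 turned to 0.022 with library size alone. Of 18 genes that did not pass, 11 passed and 10 changed sign in some alternative. When a 2-fold change (1 on the log2 scale) was also asked for, 19 genes of the set were higher and 8 lower, and 17 partners higher and 18 lower. With library size alone 26 partners were lower in place of 40, and 57 higher in place of 38. Leaving out each area gave 27 to 31 higher and 26 to 27 lower genes, and 34 to 40 higher and 39 to 43 lower partners.

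Signs changed only in genes that had not passed, Tgfbr3 excepted. With library size alone these were Fgf12 (0.15), Igfbp5 (0.28), Bmp6 (0.26, adjusted p = 0.0109 in edgeR), Notch1 (0.081) and Epha1 (0.11). Upper quartile scaling turned Igfbp5 (0.054) and Bmp6 (0.037). Fgfr1 turned with RLE (-0.005) and DESeq2 (-0.004), and Fgfr4 with the area letter as covariate (-0.021). Among R areas alone Fgf13 (-0.004), Igfbp5 (0.089), Bmp6 (0.016) and Efnb2 (-0.080) turned. Without L4 and R5 Fgf13 (-0.13), Fgfr1 (-0.17), Igfbp5 (0.21, adjusted p = 0.0468 in edgeR), Bmp6 (0.093) and Efnb2 (-0.055) did. With each area left out in turn, values ran from -0.32 to 0.043 for Fgf12, -0.021 to 0.35 for Fgf13, -0.096 to 0.19 for Fgfr1, -0.12 to 0.092 for Igfbp5, -0.083 to 0.024 for Bmp6, -0.034 to 0.14 for Efnb2 and -0.038 to 0.19 for Ephb2. The cause of these changes was not tested.

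No paired analysis was possible because the groups share only 1 area name, R2, between mice with different numbers. Genes of few counts are limited: 23 could not be tested, and 3 counts come to 0.409 to 0.649 CPM. The part of depth and of the counting of reads in this was not tested. The possible origin of each group in 1 mouse, the strain difference and the changed mixture of cells bear on every fold change and cannot be told apart from genotype.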
